A study of Mus musculus with 24 samples.

Results

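The TNF superfamily was followed across liver, brain, heart and skeletal muscle of Rap1 knockin (KI) and wild-type (WT) mice. Members were taken by gene symbol: every Tnfsf and Tnfrsf symbol with a number and at most 1 further letter, together with Tnf, Lta, Ltb, Ltbr, Fas, Fasl and Cd40. The rule found 37 of the 21368 named genes on the array, of which 14 are ligands and 23 are receptors. Tnfsf13 was in the reference gene table but had no matched probe, and no value is given for it.

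Ligands of this family are mostly membrane proteins that act as trimers, either on the cell surface or after being cut free, and their receptors carry cysteine-rich repeats outside the cell. Receptors with a cytoplasmic death domain can start apoptosis or necroptosis, others recruit TRAF adaptors and activate NF-kappaB, and decoy receptors bind ligand without passing on a signal. RAP1, the product of Terf2ip, is a shelterin subunit at telomeres that has also been tied to NF-kappaB signalling in the cytoplasm, and the study asked what RAP1 does away from telomeres.

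All mice were female. The KI mice carried the I312R allele of Rap1, made with CRISPR/Cas9 and backcrossed to C57BL/6N, at a residue that RAP1 needs to bind TRF2, and the study writes them as KI/KI. The allele is in the germ line, so every cell type of the 4 tissues carries it. Each genotype had 3 mice, each mouse gave all 4 tissues, and each tissue sample was hybridised to 1 array, for 24 arrays. Letters A to C stand for the KI mice and D to F for the WT mice, in the order in which values are given. C and F were taken at 14 months of age, and A, B, D and E at 15 months.

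Levels are the log2 signal minus the 75th percentile of the array, so 1 unit is a factor of 2, and a level can be compared between arrays but not between genes, which have different probes. That percentile lay at a signal of 312.5 to 2519.4, and from 49.4% up to 68.4% of probes were well above background. Terf2ip itself lay between 0.11 and 1.46 on all 24 arrays, with genotype means that differed by at most 0.33. A level of its transcript does not report on a point mutation. Tissue labels matched their defining transcripts, with summed markers of hepatocytes at 10.89 to 11.88 in liver, neurons at 7.97 to 8.35 in brain, cardiomyocytes at 10.08 to 10.65 in heart and skeletal fibres at 11.49 to 11.999 in muscle. Summed astrocyte and oligodendrocyte markers were not highest in brain, at 5.82 to 6.37 against 6.42 to 6.99 in heart and 6.55 to 7.41 in muscle. The mean level of these markers was highest in brain, at 2.48 to 3.01 against at most 0.41 in the other tissues. Transcripts of another tissue set 3 arrays apart. Hepatocyte markers reached 7.74 in the brain of KI mouse C against 3.00 to 3.54 in brains of the remaining mice. Skeletal fibre markers reached 3.15 in the liver of that same mouse against at most -2.23 in other livers. Mammary markers reached 2.86 in the muscle of KI mouse B against at most -2.20 in the other muscles. Results in these tissues were also computed without those 3 arrays. Adipocyte markers reached 3.04 in the heart of KI mouse B against at most 1.12 in the other hearts, and that array was not among the 3.

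Of the 37 members, 20 were well above background on all 24 arrays (54.1%, against 54.4% of all genes), and these were 4 ligands and 16 receptors. The 4 ligands were Ltb, Tnfsf10, Tnfsf12 and Tnfsf15. On all 6 arrays of a tissue, the liver had 25 members above background, the brain 26, the heart 26 and the muscle 20. A group of 8 members was above background on all 6 arrays of no tissue: Tnf, Lta, Fasl, Tnfsf4, Tnfsf8, Tnfsf11, Tnfsf18 and Tnfrsf8. Most of these are cytokines of activated lymphocytes and macrophages or, for Tnfsf11 (RANKL), of bone.

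Tnf, the founding cytokine, was well above background on 2 liver arrays and 2 heart arrays and on no array of brain or muscle. Its levels in liver were -5.17, -4.71 and -5.75 in KI mice A, B and C and -4.69, -6.07 and -5.21 in WT mice D, E and F. KI hearts gave -4.82, -5.50 and -5.33 and WT hearts -4.63, -5.66 and -5.99. Both genotypes overlapped in each of these tissues, and Tnf was not tested. Fasl, the death ligand of cytotoxic lymphocytes, was above background on 4 of 6 liver arrays. Its liver levels of -3.60, -4.78 and -4.62 in KI overlapped those of -4.23, -4.32 and -4.04 in WT. Elsewhere Fasl was above background on 3 brain arrays, 1 heart array and 1 muscle array. Lone arrays stood out for other dim members. Tnfsf4 (OX40 ligand) reached -2.61 in the liver of KI mouse C, where the other livers lay at or below -6.39. Tnfsf18 (GITR ligand) reached -2.68 in the muscle of WT mouse E against at most -5.30 in the other muscles. Tnfrsf8 (CD30) reached -4.18 in the brain of KI mouse B against at most -5.79 elsewhere in brain. Lta (lymphotoxin alpha) was above background on 8 of 24 arrays, Tnfsf8 (CD30 ligand) on 3 and Tnfsf11 on 1.

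**Figure D1:**
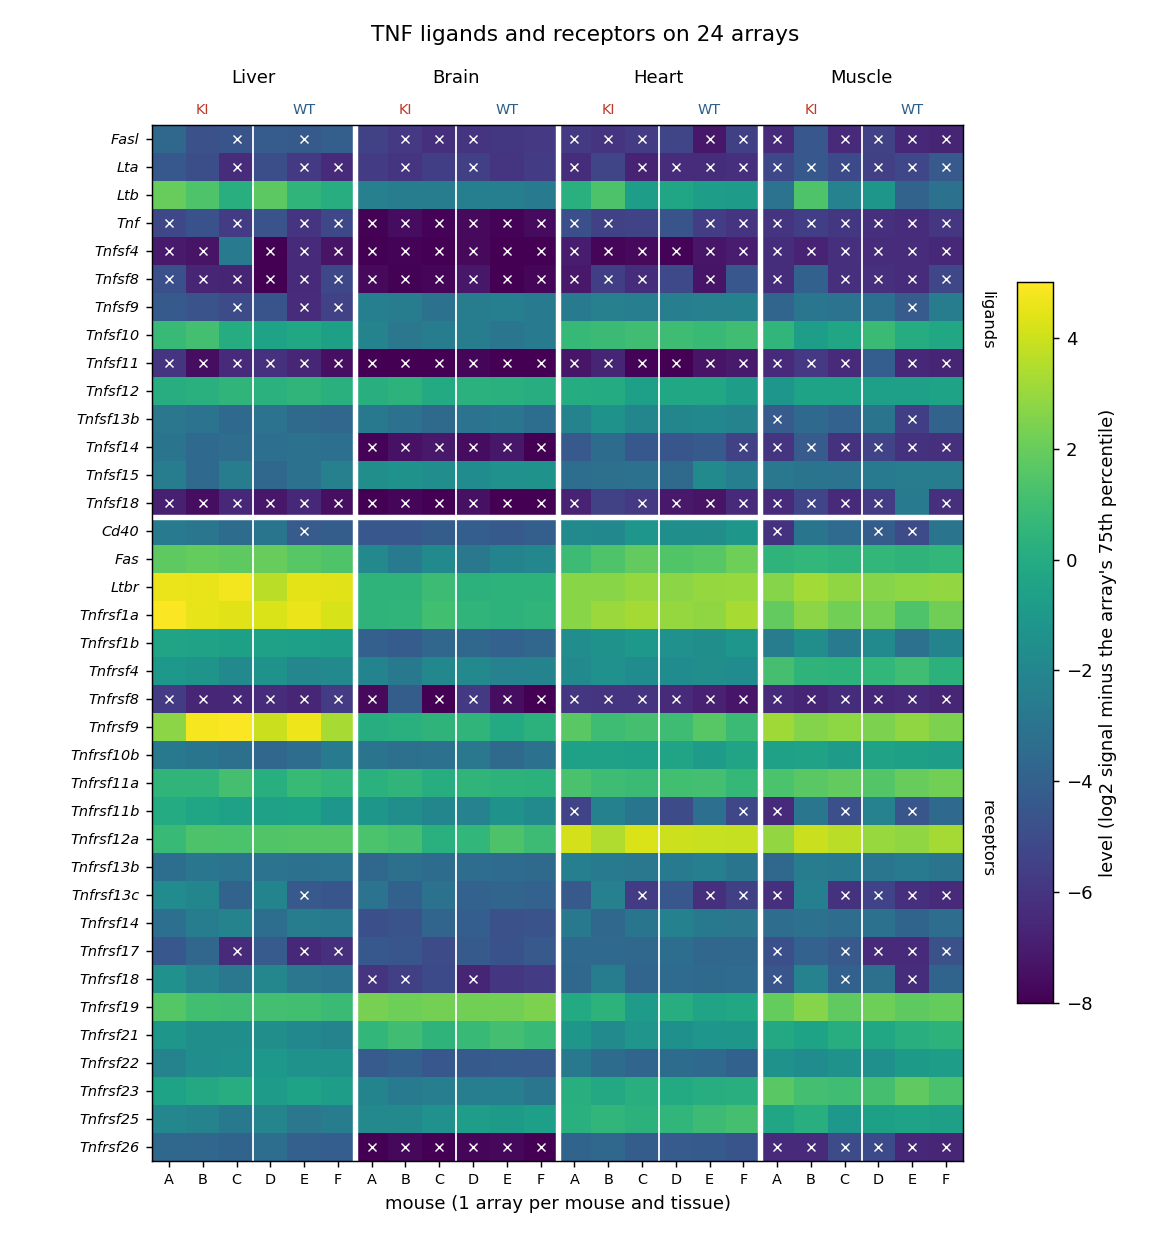
Levels of all 37 members (rows, ligands above receptors) on the 24 arrays (columns, by tissue, genotype and mouse). Colour is the log2 level relative to the array's 75th percentile, a white cross marks an array on which the probe was not well above background, and colours are to be compared along a row. Crosses cover all but 1 to 4 arrays in the rows of Tnf, Tnfsf4, Tnfsf8, Tnfsf11, Tnfsf18 and Tnfrsf8, while 20 rows have none.

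Promoters of 29 members were in the RefSeq table of mouse assembly GRCm38.p6, with 33 starts in all, and the 250 bases before each start were searched on both strands for 3 motifs. The hexamer TTAGGG, the unit of the telomeric repeat to which shelterin binds, was found before 9.32% of all 32851 starts in the table and before 3 of the 33 starts of members, those of Tnfrsf14, Tnfrsf8 and Tnfsf11. TTTCNNTTTC, a core of interferon response elements, was found before 2.98% of all starts and before 4 of members (Tnfrsf14, Tnfrsf17, Tnfrsf1b and 1 start of Tnfsf13b). The NF-kappaB consensus was found before 7.25% of all starts and before 4 of members (Ltb, Tnfrsf8, 1 start of Tnfrsf25 and 1 of Tnfrsf9). These matches are a description of letters and not of bound sites.

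Promoters are shown for members on which the genotype comparison turns (Tnfrsf25 with both starts, Tnfsf10), for Ltb, whose levels differed widely between mice, and for Tnfrsf14, which holds the telomeric hexamer. They lie at chr4:152115684-152115933 and chr4:152116093-152116342 (Tnfrsf25, plus strand), chr3:27316827-27317076 (Tnfsf10, plus strand), chr17:35194257-35194506 (Ltb, plus strand) and chr4:154928078-154928327 (Tnfrsf14, minus strand). Each is written 5′ to 3′ and ends at the base before the start. Capitals mark the NF-kappaB consensus in Tnfrsf25 and Ltb and, in Tnfrsf14, the telomeric hexamer followed by the interferon-type element. Tnfsf10 and the first start of Tnfrsf25 had no match to the 3 motifs.
Tnfrsf25, first start: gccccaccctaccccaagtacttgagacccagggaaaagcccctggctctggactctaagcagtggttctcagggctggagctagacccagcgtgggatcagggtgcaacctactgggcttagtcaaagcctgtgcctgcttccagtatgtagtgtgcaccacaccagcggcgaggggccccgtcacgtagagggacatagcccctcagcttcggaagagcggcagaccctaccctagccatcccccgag
Tnfrsf25, second start: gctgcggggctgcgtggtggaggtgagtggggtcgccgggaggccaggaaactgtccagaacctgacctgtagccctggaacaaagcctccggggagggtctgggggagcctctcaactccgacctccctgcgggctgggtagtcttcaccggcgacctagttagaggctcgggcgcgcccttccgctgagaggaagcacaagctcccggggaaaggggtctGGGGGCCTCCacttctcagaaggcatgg
Tnfsf10: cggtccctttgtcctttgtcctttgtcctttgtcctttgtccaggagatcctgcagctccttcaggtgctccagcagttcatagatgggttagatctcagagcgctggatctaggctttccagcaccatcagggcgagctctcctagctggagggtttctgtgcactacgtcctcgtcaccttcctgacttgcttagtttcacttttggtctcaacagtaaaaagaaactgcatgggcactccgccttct
Ltb: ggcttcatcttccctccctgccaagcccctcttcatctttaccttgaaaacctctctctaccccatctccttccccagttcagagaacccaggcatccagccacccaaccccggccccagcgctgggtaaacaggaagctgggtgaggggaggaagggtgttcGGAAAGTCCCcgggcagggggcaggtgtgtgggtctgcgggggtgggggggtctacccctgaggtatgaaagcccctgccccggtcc
Tnfrsf14: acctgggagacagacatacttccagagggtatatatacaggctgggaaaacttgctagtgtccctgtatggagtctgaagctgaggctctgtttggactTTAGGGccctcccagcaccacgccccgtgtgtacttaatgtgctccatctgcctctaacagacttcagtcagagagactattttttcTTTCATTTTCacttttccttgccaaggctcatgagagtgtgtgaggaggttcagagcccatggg

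The 4 tissues were compared first, over both genotypes, with limma on all 24 arrays and Benjamini-Hochberg adjustment over the 17174 genes tested. Among them were 29 members. By these levels the family was low in brain. There 20 of 29 members were lower than in the mean of the other tissues (49.8% of all genes were) and 6 were higher (35.1%). The brain mean was the lowest of the 4 for 19 of 29 members, against 37.0% of all genes. By detection brain was not low, with 26 members above background on all 6 arrays, against 25 in liver, 26 in heart and 20 in muscle. Tnfrsf26 and Tnfsf14, counted as lower, were above background on no brain or muscle array. Their means were -8.04 and -7.58 in brain and -6.02 and -5.68 in muscle. Such levels partly follow the 75th percentile, at a signal of 1401.0 to 2519.4 in brain and 312.5 to 593.2 in muscle. In liver 15 were higher (38.1% of all genes) and 9 lower (45%), in heart 16 higher (35.3%) and 7 lower (37.8%), and in muscle 12 higher (39.5%) and 9 lower (37.3%). A leading tissue, above each of the other 3 past the threshold of 0.05, was found for 16 of 29 members and for 70.3% of all genes. The lead was at least 1 on the log2 scale for 10 members and for 41.4% of all genes. Brain and liver RNA was extracted with one kit and heart and muscle RNA with another, so between these pairs tissue and kit cannot be told apart. All liver arrays and 2 brain arrays were on slide 1, 4 brain and 4 heart arrays on slide 2, and 2 heart arrays and all muscle arrays on slide 3. For the 16 members with a leading tissue, the difference between liver and brain on slide 1 had the sign of the difference over all arrays for 16, that between brain and heart on slide 2 for 16 and that between heart and muscle on slide 3 for 15, the exception being Ltbr. Liver shared no slide with heart or muscle. In tissue RNA, fewer cells of a type and less RNA per cell cannot be told apart.

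Liver led by at least 1 for 4 members, against 14.6% of all genes. Tnfrsf1a, the main death-domain receptor of TNF, had liver levels of 4.23 (lowest), 4.46 (median) and 4.93 (highest of 6 arrays). Its highest array elsewhere was 3.31 in heart, 2.76 in muscle and 1.08 in brain. The liver mean was 1.47 above heart (SE 0.18, limma adjusted p = 5.7e-07), 2.37 above muscle and 3.93 above brain. A second Tnfrsf1a probe was also highest in liver, with means of 2.92 in liver, 1.11 in muscle, 0.94 in heart and 0.44 in brain. Ltbr, the lymphotoxin beta receptor and a chromosomal neighbour of Tnfrsf1a, had liver levels of 3.66, 4.51 and 4.77 (lowest, median and highest). In every other tissue its highest array lay lower, at 3.19 in muscle, 2.99 in heart and 0.93 in brain. It lay 1.59 above muscle in liver (SE 0.14, limma adjusted p = 2.75e-09), while heart and muscle differed by 0.00 (adjusted p = 0.99).

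Tnfsf14 (LIGHT), a ligand of LTBR, was above background on all 6 liver arrays and on 5 of 6 heart arrays, and on none in brain or muscle. Its liver levels ran from -3.55 to -2.98, and the liver mean was 1.17 above heart (SE 0.32, limma adjusted p = 0.0026). Liver was at least 7.13-fold above brain and at least 1.95-fold above muscle, with brain and muscle arrays raised to the lowest level that was well above background. Tnfrsf9 (4-1BB), a costimulatory receptor of T cells, had liver levels of 2.76, 4.32 and 4.95 (lowest, median and highest). One liver array fell within the muscle range of 2.42 to 3.12. The liver mean lay 1.37 above muscle (SE 0.31, limma adjusted p = 0.00052). Another Tnfrsf9 probe was well above background on 0 of 6 liver arrays, with a liver mean of -6.37, so the probes of this gene disagreed on liver. Tnfrsf1b, the second TNF receptor, also led in liver, by 0.78 over heart (limma adjusted p = 0.0018). Its range of -0.75 to -0.42 in liver lay above all arrays of heart (-1.63 to -1.05), muscle (-3.11 to -1.57) and brain (-4.19 to -3.66).

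Fas, the receptor of FASL, did not separate liver from heart. Its levels were 1.44 to 1.99 in liver and 0.94 to 2.12 in heart, a difference of 0.18 (limma adjusted p = 0.39). Muscle lay below both, at 0.43 to 0.60, and brain lowest, at -2.78 to -1.84. Tnfrsf11b (osteoprotegerin), a soluble decoy for RANKL and TRAIL, was above background on all arrays of liver (-1.17 to -0.00) and brain (-2.23 to -1.13) but on only 4 heart and 3 muscle arrays. Tnfrsf26, an orphan receptor of a cluster with Tnfrsf22 and Tnfrsf23, was on no brain or muscle array above background. Its liver mean was at least 4.99-fold and its heart mean at least 3.86-fold above brain.

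Heart led by at least 1 for 3 members (4.37% of all genes). Cd40, the receptor of CD40 ligand on B cells, macrophages and endothelium, had heart levels of -1.92, -1.56 and -1.13 (lowest, median and highest). The highest array elsewhere was -2.70, in liver. It lay 1.88 above liver (SE 0.42, limma adjusted p = 0.00053), while the steps from liver to muscle and from muscle to brain did not pass (adjusted p = 0.13 and 0.74). Tnfrsf25 (DR3), a death-domain receptor best known on T cells, had heart levels of 0.26, 0.57 and 1.17, all above the highest muscle array of 0.16. Its order was heart, muscle, brain and liver, and each step was past the threshold, with 1.13 between heart and muscle (SE 0.19, limma adjusted p = 4.1e-05). Tnfsf13b (BAFF), the survival factor of B cells, lay 1.15 above brain in heart (SE 0.31, limma adjusted p = 0.0023). Its heart range was -2.20 to -1.30, and the brain range of -3.50 to -2.74 lay below it.

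Endothelial markers were also highest in heart, with summed levels of 4.79 to 5.44 against at most 4.35 in muscle, 3.81 in liver and 1.32 in brain, and their part in the heart values was not tested. Tnfsf10 (TRAIL), the ligand of the death receptor TNFRSF10B, led in heart by 0.77 over liver (limma adjusted p = 0.0044) with levels of 0.71 to 1.03. Tnfrsf12a (FN14), the receptor of TWEAK, led in heart by 0.67 over muscle (adjusted p = 0.0099), with 3.43 to 4.26 in heart and 2.86 to 3.96 in muscle. Tnfrsf10b itself was at the same height in heart and muscle, -0.80 to -0.39 and -0.84 to -0.50 (difference 0.06, adjusted p = 0.73). In liver and brain Tnfrsf10b lay lower, at -3.73 to -2.68 and -3.53 to -2.80.

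Muscle led by at least 1 for 2 members (6.35% of all genes). Tnfrsf4 (OX40), a costimulatory receptor of T cells, had muscle levels of 0.36, 0.52 and 1.16 (lowest, median and highest), and no array elsewhere exceeded -1.06. The muscle mean was 2.21 above liver (SE 0.18, limma adjusted p = 1.27e-09). Summed T and NK cell markers were lower in muscle (2.47 to 3.25) than in liver (6.08 to 6.83). The part of these cells in the Tnfrsf4 levels was not tested. Tnfrsf23, a decoy receptor for TRAIL, had muscle levels of 1.01, 1.23 and 1.81 and lay 1.28 above heart (SE 0.15, limma adjusted p = 5.03e-07). Its other probe was above background on 1 of 6 muscle arrays. Tnfrsf22, the paralog next to it, was in liver and muscle at similar levels, -2.17 to -1.07 and -1.69 to -0.74 (difference 0.27, adjusted p = 0.17), and near-identical stretches of these genes can share signal. Tnfrsf11a (RANK) led in muscle by 0.79 over heart (limma adjusted p = 0.00032), with 1.32 to 2.22 in muscle and 0.64 to 1.28 in heart.

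Brain led by at least 1 for 1 member (16.1% of all genes). Tnfsf15 (TL1A), the ligand of TNFRSF25, had brain levels of -1.69, -1.50 and -1.33, and the brain mean was 1.25 above muscle (SE 0.25, limma adjusted p = 0.00014). The steps from muscle to heart and from heart to liver did not pass (adjusted p = 0.66 and 0.81). Tnfrsf21 (DR6), a death-domain receptor of neurons and glia, led in brain by 0.80 over muscle (adjusted p = 0.00013). Its brain range was 0.43 to 1.10, and its muscle range was -0.44 to 0.40. Tnfrsf19 (TROY), which is expressed in neural and epithelial progenitors, was at 2.14 to 2.42 in brain and 1.78 to 2.63 in muscle, a difference of 0.23 (adjusted p = 0.23). By its second probe Tnfrsf19 was not high in brain, with means of -3.37 for brain, -2.22 for muscle, -2.43 for liver and -4.50 for heart, so the probes disagreed. Remaining members had no leading tissue or led by less than 1. Tnfsf12 (TWEAK) stayed close, with a median of 0.30 for liver, 0.21 for brain, -0.25 for heart and -0.57 for muscle. Its second probe, above background on all arrays, had means of -0.81 for liver, -1.25 for heart, -1.75 for brain and -1.92 for muscle. Against the mean of the other tissues, brain differed by 0.40 with the probe used and by -0.42 with the second. Tnfsf12 was counted as higher in brain, and its probes disagreed there. Tnfsf9 (4-1BB ligand) was above background on all heart arrays (-2.61 to -2.26) and brain arrays (-3.15 to -2.36) but on only 3 liver arrays. Tnfrsf14 (HVEM), a receptor of LIGHT, ranged from -3.32 to -2.21 in liver and from -4.80 to -3.74 in brain. Tnfrsf13b (TACI), a BAFF receptor, ranged from -3.61 to -2.37 over all 24 arrays. Tnfrsf17 led in heart by 0.99 over brain (limma adjusted p = 0.039). It was above background on all heart and brain arrays but on only 3 liver arrays and 1 muscle array.

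Ltbr, Tnfrsf1a, Tnfrsf1b and Fas were all lowest in brain. Summed macrophage and microglia markers were not, at 6.42 to 6.68 in brain, 5.60 to 6.86 in liver, 6.61 to 7.23 in heart and 5.85 to 6.69 in muscle. The mean level of these 8 genes in brain, 1.76 to 1.91, lay below liver (1.99 to 2.81) and heart (1.96 to 2.55). In muscle that mean was lower, at -0.74 to 0.95. The part of these cells in the receptor levels was not tested.

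**Figure D2:**
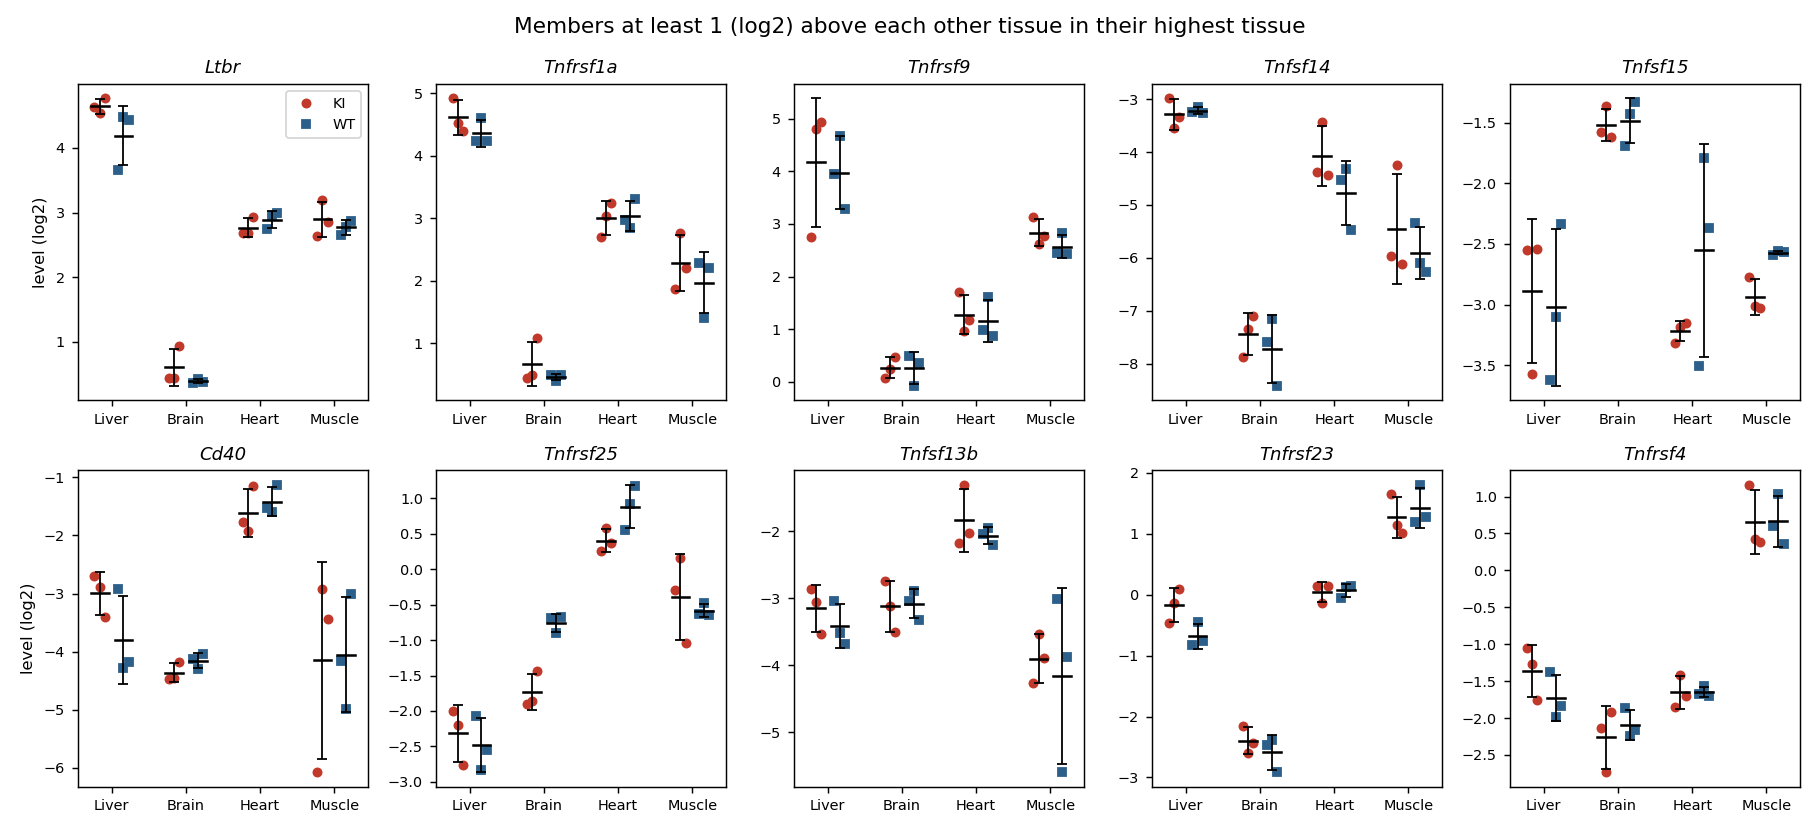
Levels (log2, relative to the array's 75th percentile) of the 10 members that lay at least 1 above each other tissue in their highest tissue. Points are single mice, circles KI and squares WT, and black lines are the mean and SD of 3 mice; the 4 liver members and Tnfsf15 of brain fill the upper row, and heart and muscle members are in the lower row.

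Members known from lymphocytes had wide ranges within a genotype. Ltb (lymphotoxin beta), the membrane partner of lymphotoxin alpha, had liver levels of 1.97, 1.42 and 0.14 in KI mice A, B and C and 1.71, 0.50 and 0.10 in WT mice D, E and F. In heart it had 0.23, 1.35 and -0.78 in KI and -0.29, -0.71 and -0.83 in WT. KI muscles gave -3.07, 1.43 and -2.23 and WT muscles -1.10, -3.87 and -3.08. The liver of A, B and D and the heart and muscle of B were the high ones. In brain Ltb stayed between -2.58 and -2.35.

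Tnfrsf13c (BAFF receptor), which naive B cells carry, was high on the same arrays. It had liver levels of -1.75, -2.01 and -3.88 in KI and -2.16, -4.36 and -4.51 in WT. In the heart and muscle of mouse B it reached -2.35 and -2.37, where the next arrays lay at -4.38 and -5.39. Summed markers of B cells (6 genes, of which 3 to 6 were above background on an array of these 3 tissues) were also highest there. They were 2.93, 2.39 and 2.38 in the livers of A, B and D and 1.52, 1.54 and 1.97 in those of C, E and F. Mouse B had 2.69 in heart and 2.15 in muscle, against at most 1.89 and 1.62 in the other mice. In liver Tnfrsf18 (GITR) and Tnfrsf17 (BCMA, the receptor of plasma cells) also had their 3 highest arrays in A, B and D, with Tnfrsf18 at -1.43, -2.23 and -1.98 against at most -2.79. Markers of other blood cells were high on these arrays too. Neutrophil markers summed to 3.20, 2.72 and 2.63 in the livers of A, B and D against at most 2.26 in the other livers. In heart they were highest in B, at 2.72, and in muscle they reached 6.08 and 6.22 in B and D against at most -0.12 in the other mice. The mean level of 8 T and NK cell markers was 0.95, 0.80 and 0.79 in the livers of A, B and D and at most 0.72 in the others, while their summed level, 6.08 to 6.83, did not follow that order. In heart and muscle that mean was highest in B, at -1.08 and -0.76, against at most -1.66 and -1.99. The part of B cells, T and NK cells and neutrophils in these levels was not tested.

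**Figure D3:**
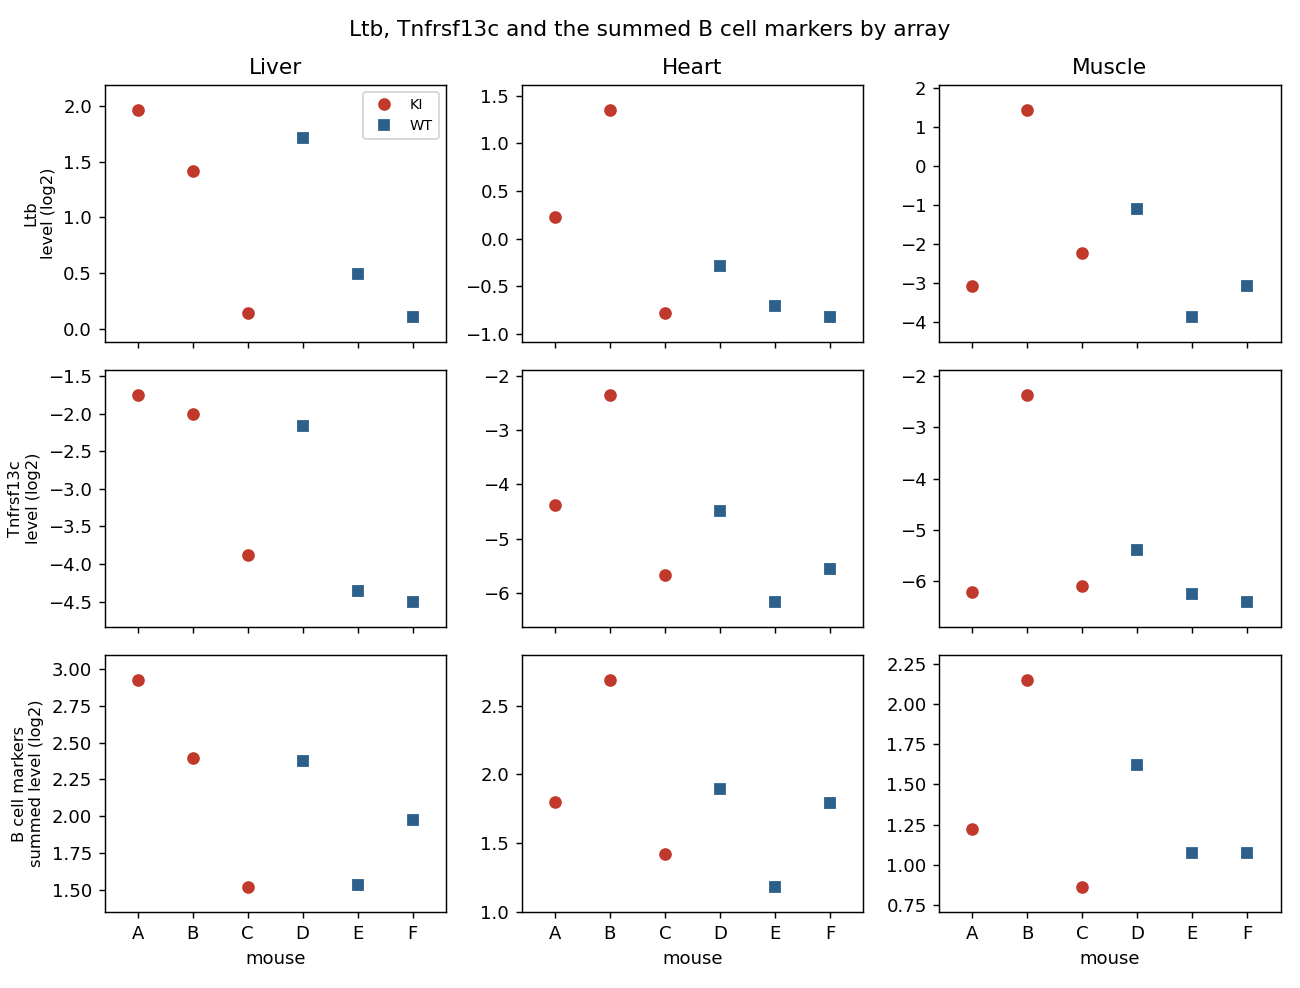
Levels of Ltb and Tnfrsf13c and the summed level of 6 B cell markers (all log2, each panel with its own scale) in liver, heart and muscle of the 6 mice. Circles are KI and squares are WT mice; the heart and muscle of mouse B and the livers of A, B and D are the high points in all 3 rows.

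The genotype comparison asked which members differed between KI and WT within a tissue. No member passed the threshold in liver, brain, heart or muscle, in the mean over a mouse's 4 tissues or in the F-test for a genotype effect that differs between tissues, and 0% of all genes passed in any of them. The liver test held 27 members, that of brain 26, of heart 27, of muscle 21 and of the mean 29. At an unadjusted limma p under 0.05 liver had 4 (11.7% of all genes), brain 1 (0.785%), heart 2 (1.64%), muscle 1 (0.852%) and the mean 0 (3.49%). With 3 mice against 3, an exact two-sided permutation test of a single gene cannot go below 0.10. Members whose KI and WT arrays did not overlap were 5 for liver (19.7% of all genes), 2 for brain (2.86%), 1 for heart (5.03%), 1 for muscle (3.54%) and 2 for the mean (9.04%). The members named next are those with an unadjusted p under 0.05, and their shares are to be read against these percentages.

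In liver the KI mean was above the WT mean for 22 of 27 members, against 55.9% of all genes tested. The median difference was 0.21 over members and 0.04 over all genes. Cd40 and Tnfrsf13c entered that test through the KI arrays alone, with 2 of 3 WT arrays above background. Under the other settings and with single mice left out, 20 to 30 of 25 to 37 members tested lay above 0 in liver, the lowest share being 22 of 31 without KI mouse C. In brain 13 of 26 lay above 0 (41% of all genes), in heart 13 of 27 (38.2%), in muscle 10 of 21 (54.8%) and in the mean 20 of 29 (51.9%). These counts moved with the setting. Brain had from 7 of 26 in the deposited score table to 17 of 26 without KI mouse C and 23 of 37 with no filter on dim probes. Heart had 19 of 27, with 56.6% of all genes above 0, when the percentile was taken over probes detected on all arrays, and 12 to 21 over all settings. Muscle had from 6 of 21 without KI mouse B to 21 of 37, and the mean 18 to 28 members. Tnfsf14 in heart (difference 0.70) and Tnfsf9 in muscle (0.10) also entered through the KI arrays alone.

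Macrophage markers, all 8 of them above background on every liver array, were also mostly higher in KI livers. For 7 of the 8 genes all KI livers lay above all WT livers, and Itgam overlapped. Of all genes tested in liver, 19.7% had no overlap, in either direction. Their mean level was 2.81, 2.34 and 2.51 in A, B and C and 2.06, 1.99 and 2.14 in D, E and F. Csf1r differed by 0.69 (SE 0.12, limma adjusted p = 0.36) and Aif1 by 0.91 (SE 0.17, limma adjusted p = 0.36). The summed level, in which Itgam weighs most on some arrays, overlapped, at 6.86, 5.91 and 6.12 for KI and 5.60, 5.68 and 6.33 for WT. Neutrophil markers had a mean level of -0.71, -1.13 and -1.22 in KI livers and -1.44, -2.09 and -2.08 in WT livers, also without overlap. Their summed level overlapped, at 3.20, 2.72 and 2.26 for KI and 2.63, 2.02 and 1.95 for WT. All KI livers lay above all WT livers for 3 of the 5 neutrophil genes, to be read against the same 19.7% of all genes. The part of these cells in the liver values was not tested.

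Tnfsf10 (TRAIL) had liver levels of 0.79, 1.09 and 0.07 in KI mice A, B and C and -0.44, -0.19 and -0.59 in WT mice D, E and F. All KI livers lay above all WT livers, with mouse C, whose liver array also carried muscle transcripts, closest to WT. The difference was 1.06 (SE 0.27, unadjusted p = 0.0070, limma adjusted p = 0.36). Without mouse C it was 1.35 (adjusted p = 0.53). In the other tissues both genotypes overlapped, with differences of 0.17 in brain, -0.05 in heart and -0.39 in muscle. The F-test over the 4 tissues gave Tnfsf10 an unadjusted p of 0.028 (adjusted p = 1.00).

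Tnfrsf25 (DR3) was the member with the smallest genotype p-value. In brain it stood at -1.90, -1.87 and -1.43 for KI against -0.69, -0.90 and -0.68 for WT. All KI brains lay below all WT brains. The KI brain of mouse C, which carried hepatocyte transcripts, was again nearest to WT. The difference was -0.97 (SE 0.17, unadjusted p = 0.00077, limma adjusted p = 1.00), which is about 0.51 of the WT signal, and without mouse C it was -1.12. Brain arrays lay on slides 1 and 2 with both genotypes on each, and the differences were -1.21 on slide 1 (1 array against 1) and -0.86 on slide 2 (2 against 2).

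In heart Tnfrsf25 was at 0.26, 0.58 and 0.37 in KI and 0.56, 0.92 and 1.17 in WT. The genotypes overlapped by 1 array, and the difference was -0.48 (SE 0.19, unadjusted p = 0.040, limma adjusted p = 0.97). It was -0.32 within slide 2 and -0.80 within slide 3, where mouse C and mouse F, the younger mice, lay. Tnfrsf25 in liver (-1.99, -2.19 and -2.76 in KI, -2.07, -2.83 and -2.55 in WT) and in muscle (-0.30, 0.16 and -1.05 in KI, -0.63, -0.48 and -0.65 in WT) overlapped between genotypes. Here the differences were 0.17 and 0.19. Over the mean of 4 tissues the 3 KI mice lay below the 3 WT mice, by 0.27 (SE 0.12, unadjusted p = 0.059, limma adjusted p = 0.98). The F-test for a genotype effect that differs between tissues had 2 members at an unadjusted p under 0.05 (1.87% of all genes), Tnfrsf25 with 0.017 and Tnfsf10, and adjusted p-values of 1.00. Tnfsf15, the ligand of TNFRSF25, overlapped between genotypes in brain, with -1.58, -1.36 and -1.61 in KI and -1.69, -1.43 and -1.33 in WT.

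Other members reached an unadjusted p under 0.05 in 1 tissue each. In liver Tnfrsf23 had -0.46, -0.14 and 0.10 in KI and -0.83, -0.46 and -0.77 in WT, a difference of 0.52 (SE 0.19, unadjusted p = 0.030). Tnfrsf22 went the other way, with -2.17, -1.63 and -1.50 in KI and -1.07, -1.36 and -1.36 in WT, a difference of -0.51 (SE 0.21, unadjusted p = 0.045). All KI livers lay below all WT livers for Tnfrsf22, but its other probe, above background on all liver arrays, differed by only -0.02. Tnfrsf21 in liver had -1.12, -1.55 and -1.51 in KI and -1.60, -1.94 and -2.16 in WT, a difference of 0.51 without overlap (SE 0.20, unadjusted p = 0.038). Adjusted limma p-values of these 3 lay at 0.40, 0.42 and 0.41. In heart Tnfrsf26 was at -3.81, -3.67 and -4.17 in KI and -4.24, -4.32 and -4.64 in WT, a difference of 0.52 (SE 0.18, unadjusted p = 0.026, limma adjusted p = 0.97). In muscle Tnfsf15 was at -2.77, -3.01 and -3.03 in KI and -2.59, -2.56 and -2.56 in WT, a difference of -0.37 (SE 0.15, unadjusted p = 0.048, limma adjusted p = 1.00).

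The principal receptors of TNF, lymphotoxin and CD40 ligand did not pass in any tissue. The Tnfrsf1a difference was 0.25 (SE 0.19) for liver, 0.21 for brain, -0.04 for heart and 0.32 for muscle, with overlap of the genotypes in all 4. Its second probe, above background on all arrays, gave -0.09 for liver, 0.19 for brain, 0.08 for heart and 0.31 for muscle. The probes thus differed in sign in liver and heart. For Tnfrsf1b the differences were 0.15, -0.20, 0.03 and 0.11 in the same order, and for Fas 0.15, 0.18, -0.31 and -0.04, again with overlap. Ltbr was higher without overlap in KI livers (4.63, 4.54 and 4.77 against 3.66, 4.47 and 4.43) and KI brains (0.44, 0.44 and 0.93 against 0.37, 0.43 and 0.39). Its differences were 0.46 (SE 0.24, limma adjusted p = 0.47) and 0.21 (SE 0.17, limma adjusted p = 1.00). Single mice decided these values: Ltbr differed by 0.20 in liver without WT mouse D and by 0.05 in brain without KI mouse C, whose brain array carried hepatocyte transcripts. Likewise Tnfrsf1a in brain differed by 0.01 without mouse C, and in muscle by 0.07 without KI mouse B and 0.03 without WT mouse E. Cd40 in liver was at -2.70, -2.89 and -3.41 in KI and -2.93, -4.29 and -4.17 in WT, a difference of 0.80 with overlap (SE 0.39, limma adjusted p = 0.46), which ran from 0.55 to 1.23 with single mice left out. Larger differences with larger spread were seen where markers of B cells and other blood cells varied. Examples were Tnfrsf13c in liver (1.13, SE 0.80) and Ltb in muscle (1.395, SE 1.24). The muscle of KI mouse B, the highest for Ltb, also carried mammary transcripts and high neutrophil markers. The part of these cells was not tested.

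**Figure D4:**
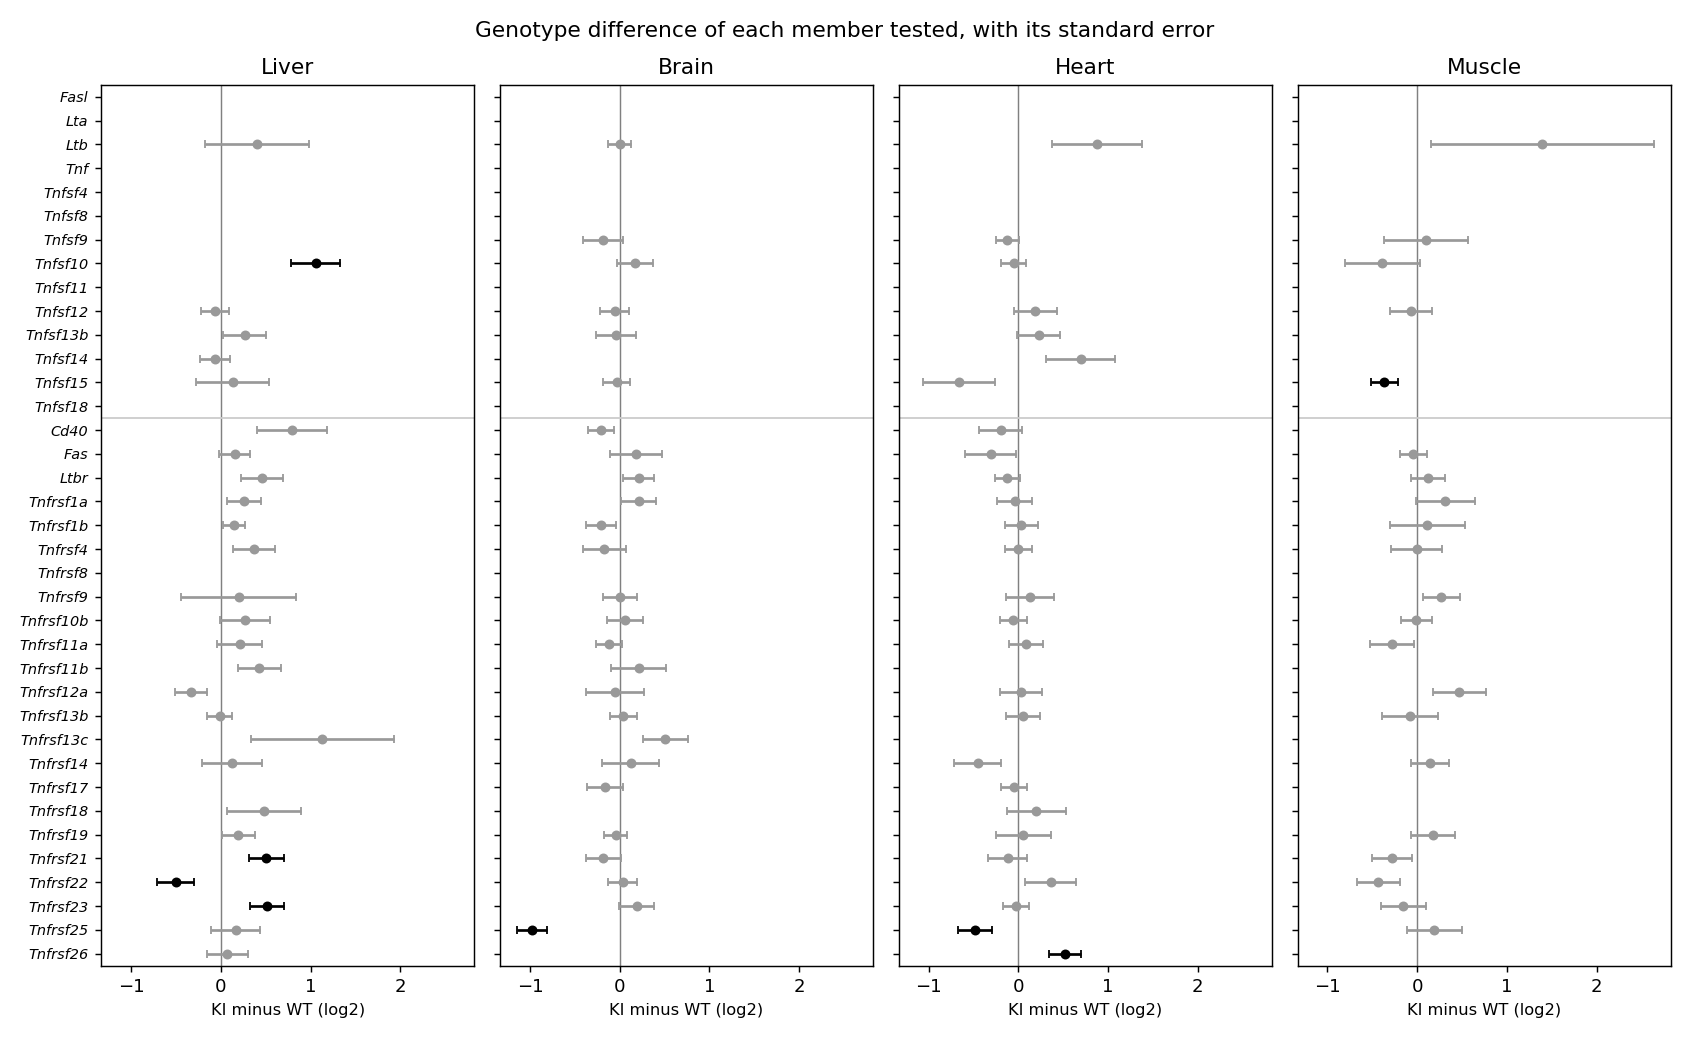
KI minus WT difference (log2) with its standard error for every member tested in each tissue, ligands above receptors; black points have an unadjusted limma p under 0.05 and none passed after adjustment. In liver 22 of 27 points lie right of 0, and Tnfrsf25 in brain lies at -0.97.

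**Figure D5:**
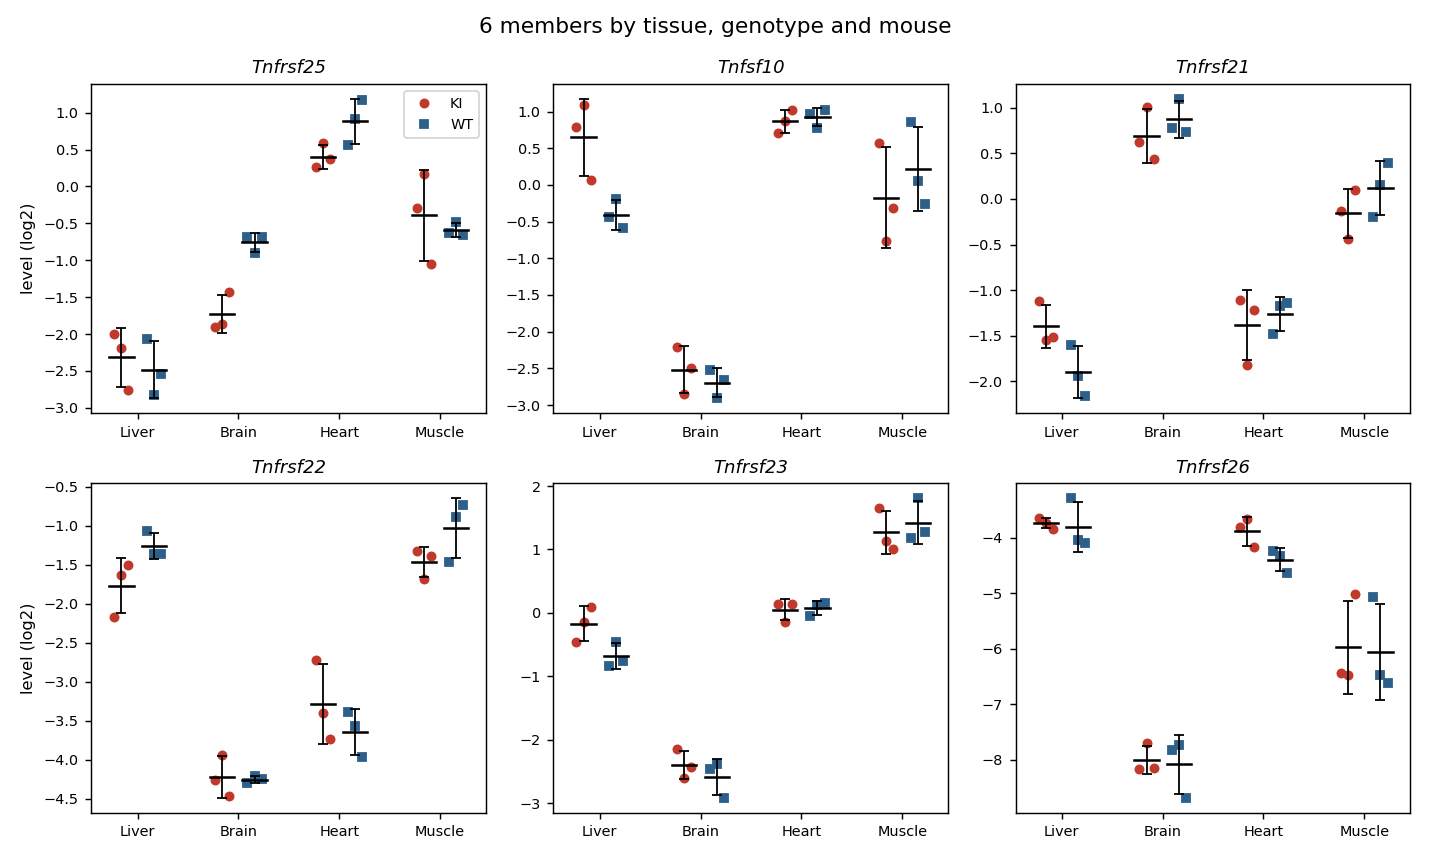
Levels (log2, relative to the array's 75th percentile) of 6 members named in the genotype comparison, in the 4 tissues. Points are single mice, circles KI and squares WT, and black lines are the mean and SD of 3 mice; KI and WT do not overlap for Tnfrsf25 in brain or for Tnfsf10 in liver and overlap for both in muscle.

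By role, the 5 death-domain receptors (Tnfrsf1a, Fas, Tnfrsf10b, Tnfrsf21 and Tnfrsf25) were tested in every tissue. The liver had 5 above 0 (55.9% of all genes), the brain 3 (41%), the heart 0 (38.2%) and the muscle 2 (54.8%). Under the other settings the heart share of all genes ran from 37.1% to 56.6%. By its second probe Tnfrsf1a lay below 0 in liver (-0.09) and above 0 in heart (0.08). Median differences of the 5 were 0.25 for liver, 0.06 for brain, -0.12 for heart and -0.01 for muscle. Over all genes the medians were 0.04, -0.03, -0.05 and 0.02. The counts that follow are to be read against the same shares of all genes. Of the decoy receptors Tnfrsf11b, Tnfrsf22 and Tnfrsf23, 2 of 3 lay above 0 in liver and 3 of 3 in brain. Of the 2 tested in heart 1 lay above 0, and of the 2 tested in muscle 0 did. In brain Tnfrsf22 differed by 0.03, while its other probe, above background on all 6 brain arrays, differed by -0.51. The ligands tested lay above 0 for 4 of 6 in liver, for 2 of 6 in brain, for 4 of 7 in heart and for 2 of 5 in muscle, where Tnfsf14 in heart and Tnfsf9 in muscle were among those above 0 and were tested through their KI arrays.

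Downstream genes of the pathway were read from 3 lists, and 0 of them passed the threshold in any tissue. Of 30 receptor adaptors and regulators tested in liver, 5 had an unadjusted p under 0.05, all higher in KI, and 19 lay above 0 with a median of 0.15, where 11.7% of all genes had such a p and 55.9% lay above 0. Ripk3, the kinase that starts necroptosis, had liver levels of -0.81, -0.75 and -0.73 in KI and -1.01, -1.23 and -1.47 in WT (difference 0.48, SE 0.15, limma adjusted p = 0.40). Cyld, which removes ubiquitin chains from the receptor complex, had 0.73, 0.74 and 0.92 in KI and 0.37, 0.52 and 0.33 in WT (difference 0.39, SE 0.12, limma adjusted p = 0.40). Mlkl, the membrane effector of necroptosis, had a KI mean above the WT mean in each tissue, with 0.53, 0.88 and 0.55 against 0.05, 0.28 and -0.61 in liver. In the mean over tissues the difference was 0.46 (SE 0.10, unadjusted p = 0.0028, limma adjusted p = 0.98), with all 3 KI mice above all 3 WT mice.

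Of 11 TNF-responsive genes tested in liver, 4 were higher and 1 lower in KI at an unadjusted p under 0.05 (11.7% of all genes in either direction). Tnfaip2 was at 2.21, 1.76 and 2.03 in KI and 1.64, 1.51 and 1.26 in WT (difference 0.53, SE 0.17, limma adjusted p = 0.40), and Cxcl1 was the gene lower in KI (difference -0.83, SE 0.34). Among 7 NF-kappaB subunits and kinases, 1 reached that p in liver, Relb, with a difference of 0.50 (SE 0.19, limma adjusted p = 0.40). In brain, heart and muscle these 3 lists had 1 such gene in all, Mlkl in muscle (difference 0.55, SE 0.22, limma adjusted p = 1.00). Next in order of p were Ccl2 (0.37), Tnfaip2 (0.39) and Nfkbia (-0.21) in brain, Cxcl10 (0.43) and Traf1 (0.29) in heart, and Casp8 (-0.43) and Nfkbie (0.39) in muscle, all as log2 differences with an unadjusted p above 0.05. Family members whose names fall outside the symbol rule (Cd40lg, Cd27, Cd70, Eda, Edar, Eda2r, Relt and Ngfr) had 2 of 8 tested in liver, and 0 of the 8 reached an unadjusted p under 0.05 in any tissue. The smallest unadjusted limma p of these genes was 0.097 in liver and 0.12 in heart. In heart Ngfr, a receptor of neurotrophins, differed by 0.37.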

How the data were processed

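RNA of 24 tissue samples was hybridised to 1-colour Agilent arrays on 3 slides. The deposited intensities came from Agilent Feature Extraction (12.0.3.1 per the file headers), corrected for background and not normalized between arrays. The authors also deposited a table of log-scale scores, used only as an alternative. A model for these arrays is not given in the sources used here.

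Control and outlier spots were left out, spots of a probe averaged (55681 probes), and log2 signal taken minus the 75th percentile of the array. Probes were named through RefSeq accessions, and the brightest probe stood for a gene (9 members had 2 probes). A gene was tested in a tissue if well above background on all 3 arrays of 1 genotype. The test was limma 3.58.1 (lmFit, eBayes, two-sided, R 4.3.3), tested on simulated data, with Benjamini-Hochberg adjustment over all genes and a threshold of 0.05. Replicates were separate mice, whose number limits the precision. Deviations from group means correlated by 0.014 between tissues of a mouse and -0.0065 between mice, and the genotypes share no mouse. Probes not above background in a whole tissue were given as bounds.

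Members and lists were chosen with earlier results of these data known. Named were members with an unadjusted p under 0.05 in a tissue, 9 members in every tissue (Tnf, Tnfrsf1a, Tnfrsf1b, Fas, Fasl, Cd40, Ltbr, Tnfsf10 and Tnfrsf25), those leading by at least 1 and the 3 pathway genes of smallest p; others were named after their values were seen. Alternatives covered scaling, background (normexp, offset 50, on median intensities), dim probes, probe choice, array weights, slide or mouse as a block, and mice or arrays left out.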

Additional observations from a re-analysis of the deposited data

How the results depend on the processing

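The count of members past the threshold was 0 in every genotype comparison under every alternative run, quantile normalization, normexp, the deposited score table, array weights, slide as a block and each mouse left out included. Counts at an unadjusted p under 0.05 moved more: liver 2 to 4, brain 1 to 4, heart 0 to 3, muscle 0 to 4, the mean 0 to 3 and the F-test 0 to 3. With the mouse as a replicate block over all 24 arrays (consensus correlation -0.0013), Tnfrsf25 differed by -0.97 in brain and Tnfsf10 by 1.06 in liver, and no call changed. Leaving out single mice gave -1.12 to -0.89 for Tnfrsf25 in brain, with adjusted p-values of 1.00, and 0.84 to 1.35 for Tnfsf10 in liver. Tnfrsf22 in liver was -0.30 without KI mouse A and -0.02 by its other probe; the cause was not tested. Members with a leading tissue numbered 14 to 19 against 16, and members called higher or lower numbered 23 to 26 (liver), 24 to 31 (brain), 19 to 25 (heart) and 15 to 23 (muscle). In the score table differences are on another scale. There the 27 differences of the members named in every tissue kept their sign, while 7 of 26 members lay above 0 in brain against 13. Dim probes limit the ligands: 8 members could not be tested in any tissue.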
